A study of Homo sapiens with 6 samples.

Results

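The genes examined here were the 10 core genes of melanin synthesis and of the pigment organelle: TYR, TYRP1, DCT, PMEL, MLANA, OCA2, SLC45A2, SLC24A5, GPR143 and TRPM1. They were chosen by gene symbol, and all 10 were found, each on 1 row, among the 60504 genes of the count table. RNA-seq had been performed on WM164, a human melanoma cell line with the BRAFV600E genotype, which makes the kinase BRAF constantly active. The EV group (n = 3 libraries) carried an empty expression vector and the HDAC8 group (n = 3) an expression vector for HDAC8, a class I histone deacetylase. Both were transfected cells kept under hygromycin, and whether a group came from 1 clone or from a pool of cells is not stated. Comparing HDAC8 with EV asks how transcripts, here those of pigmentation, differed between cells given the HDAC8 vector and cells given the empty vector.

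Melanin is made in the melanosome, an organelle of melanocytes that many melanoma cells keep. Tyrosinase (TYR) oxidizes tyrosine in the step that limits the rate of the whole pathway, and its relatives DCT and TYRP1 act on later intermediates of the brown-black pigment. PMEL builds the fibrils on which melanin is laid down, ion transporters set the pH and salt content in which tyrosinase works, and most of these genes are known targets of the transcription factor MITF.

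Most pigment genes were lower in the HDAC8 libraries, by amounts that ranged widely. MLANA was reduced to 3.50% of its EV mean, SLC45A2, SLC24A5 and TYR to 29.1%, 32.6% and 33%, TRPM1 to 27.1%, DCT to 47.3% and PMEL to 55.3%. The mean of GPR143 remained at 87.9%, a difference that did not pass the test. OCA2 (159 to 207 reads per EV library) and TYRP1 (22 to 60) each had no reads in 2 of the 3 HDAC8 libraries. A call needed an adjusted p under 0.05 in DESeq2 (Benjamini-Hochberg) together with a log2 fold change of 0.58 or more in either direction. By this rule 7 of the 10 genes were called lower, against 5.44% of all genes with an adjusted p, and 0 were called higher, against 5.57%. No pigment gene was higher at an unadjusted p under 0.05 either, and edgeR and limma-voom called 8 lower and 0 higher, with 3.99% and 4.14% of all genes called lower. In 9 of the 10 genes every HDAC8 library lay below every EV library, which was true of 12.7% of all genes fitted. The median log2 fold change was -1.70 over the 10 genes and -0.00 over all 26162 genes fitted. In these bulk samples, fewer cells that express a gene and less of its RNA per cell cannot be told apart.

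**Figure D1:**
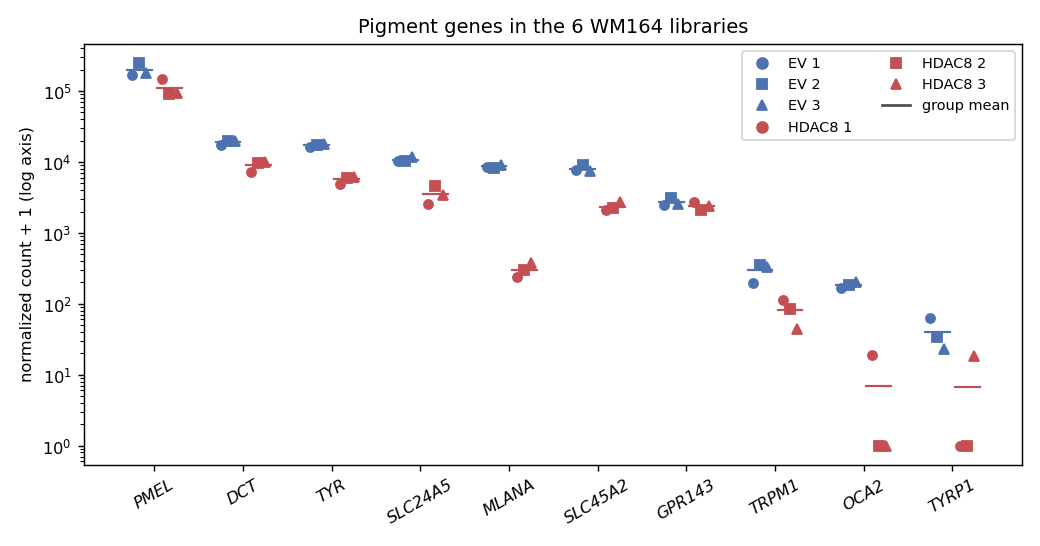
Normalized count plus 1 (log axis) of the 10 pigment genes in the 6 WM164 libraries, with 1 symbol per library, EV in blue, HDAC8 in red and a bar at each group mean. The red symbols lie below all blue symbols in 9 genes, with a wide gap at MLANA (8323 or more against 372 or less), and the symbols of GPR143 overlap.

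The libraries were deep and of like size, with total counts from 34741083 to 42041462. In a principal component analysis of the most variable genes, component 1 (54.7% of their variance) separated EV from HDAC8, and component 2 (18.0%) set HDAC8 1 (43.7) and HDAC8 2 (-47.1) apart from each other. Without HDAC8 1, 8 of the 10 pigment genes were called lower, the eighth being OCA2. The log2 fold changes without it were -4.69 for MLANA, -1.50 for TYR, -0.95 for DCT, -1.12 for PMEL, -1.70 for SLC45A2, -1.44 for SLC24A5, -0.28 for GPR143 and -2.21 for TRPM1. Mitochondrially encoded transcripts took 9.66% to 12.8% of the counts in EV and 4.46% to 7.94% in HDAC8, and a fit without them called 7 pigment genes lower as well. The transcript of HDAC8 itself had normalized counts of 383.8, 404.4 and 478.8 in EV and 484.8, 445.5 and 473.7 in the HDAC8 libraries, and the 2 ranges overlapped (log2 fold change 0.15, SE 0.28, DESeq2 adjusted p = 0.856). The interval of this log2 fold change ran from -0.41 to 0.70. A rise of the HDAC8 transcript was thus not seen in the libraries labelled HDAC8, and a log2 rise above 0.70 lies outside the interval. The transcript therefore does not back the labels, and HDAC8 libraries means below the libraries labelled HDAC8. This concerns RNA only: the paper probed HDAC8 protein by immunoblot in cells given the construct, and these libraries do not measure protein. For the label of a melanoma line only the melanocytic lineage was looked at, which does not check the line itself. All 8 melanocytic markers (SOX10, MITF, PAX3, S100B, S100A1, TFAP2A, CSPG4 and MCAM) had reads. Their summed level was 98361 to 132505 normalized counts per library. Of these markers, S100A1 (log2 fold change -0.98, DESeq2 adjusted p = 1.00e-05) and S100B (-0.66, adjusted p = 0.0188) were called lower. In the same 8 markers edgeR called 2 lower and limma-voom 1. Markers of other cell types were at low sums: 1490 to 3085 for 8 fibroblast genes, 166 to 303 for 6 keratinocyte genes, 2306 to 6173 for 6 blood genes and 97.5 to 263 for 4 endothelial genes. In each of the fibroblast, keratinocyte and endothelial lists 1 gene was at 0 in all 6 libraries (DCN, KRT1 and CDH5), while LUM made up most of the fibroblast sum (2462 ± 234 in EV and 1629 ± 553 in HDAC8, SD, n = 3, not called). The other fibroblast genes fitted had a log2 fold change below 0, except PDGFRA (140 ± 28.4 to 313 ± 71.2), which DESeq2 called higher and neither edgeR nor limma-voom did, and the median of that list was -1.46. In the blood list CD68 (2751 ± 514 to 5219 ± 968) and CD3E (0 in each EV library, 73.3 ± 21.0 in HDAC8) were called higher. Of the genes in this paragraph, LUM, DCN, KRT1, CDH5 and CD3E were named after their values were seen. The part of these markers in the results on pigment genes was not tested.

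To show the DNA from which the pigment genes are transcribed, promoters were read from RefSeq (GRCh38.p14). By symbol 8 of the 10 genes were matched (all but PMEL and SLC45A2), with 10 start sites. MITF binds CATGTG, and its sites at pigment genes often read TCATGTG. On either strand CATGTG occurred from 250 bases before to 50 bases after a start in 7 of the 8 genes, against 11.1% of all 35116 promoter windows of this length. TCATGTG, which contains it, occurred in 5 of the 8 (TYR, TYRP1, DCT, SLC24A5 and GPR143), against 2.92%. These counts are of genes with a match at any of their starts, while the shares are of single windows. The 250 bases before the start are shown for MLANA, the gene with the largest called change and without a match, for TYR and DCT (the start with matches), which were called lower, and for GPR143, which was not called. The windows of DCT and GPR143 each hold 2 matches of TCATGTG, and 0.0968% of all windows hold 2 or more. Each is written 5′ to 3′ on the strand of the gene, with each CATGTG, or its reverse complement CACATG, in capitals.
MLANA, chr9:5890639-5890888, plus strand: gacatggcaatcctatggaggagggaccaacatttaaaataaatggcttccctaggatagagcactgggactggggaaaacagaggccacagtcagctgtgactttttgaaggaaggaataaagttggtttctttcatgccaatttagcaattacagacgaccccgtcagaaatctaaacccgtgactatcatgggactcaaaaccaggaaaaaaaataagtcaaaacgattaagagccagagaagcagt
TYR, chr11:89177625-89177874, plus strand: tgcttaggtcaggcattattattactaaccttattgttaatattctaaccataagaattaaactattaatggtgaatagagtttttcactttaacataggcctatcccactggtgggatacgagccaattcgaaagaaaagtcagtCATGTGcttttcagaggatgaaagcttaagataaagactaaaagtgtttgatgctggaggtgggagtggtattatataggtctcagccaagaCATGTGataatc
DCT, chr13:94479683-94479932, minus strand: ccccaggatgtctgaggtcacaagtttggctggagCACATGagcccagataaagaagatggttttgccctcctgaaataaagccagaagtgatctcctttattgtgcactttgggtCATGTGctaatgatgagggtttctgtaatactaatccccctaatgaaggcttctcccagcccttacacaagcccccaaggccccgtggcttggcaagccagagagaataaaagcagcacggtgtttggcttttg
GPR143, chrX:9765848-9766097, minus strand: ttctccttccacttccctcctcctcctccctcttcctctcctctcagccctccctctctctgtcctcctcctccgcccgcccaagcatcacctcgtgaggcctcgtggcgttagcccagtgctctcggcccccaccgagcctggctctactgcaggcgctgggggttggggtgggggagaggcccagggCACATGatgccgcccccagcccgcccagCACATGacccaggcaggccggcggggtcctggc
The matches began 104 and 12 bases before the start in TYR, 215 and 134 in DCT, and 61 and 33 in GPR143. The E-box CACGTG (7.26% of all windows) and the AP-1 site TGANTCA (7.71%) occurred in no window of the 8 genes, and the SOX-type site ACAAAG (16.1%) in those of OCA2 and TRPM1. Genes with matches were called lower (TYR, DCT, SLC24A5 and TRPM1) or not called (GPR143, OCA2 and TYRP1), and a match of letters is no evidence of binding.

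The enzymes were compared first. TYR (chr11:89177875-89295759, plus strand, 5 exons in its canonical transcript) had normalized counts of 16362, 17594 and 17720 in EV and 4865, 5984 and 6215 in HDAC8. The 3 HDAC8 libraries were close to each other and far below EV. The mean fell from 17226 ± 750.3 to 5688 ± 722 (SD, n = 3), a log2 fold change of -1.60 with a 95% interval from -1.87 to -1.33 (DESeq2 adjusted p = 3.64e-28). DCT, the dopachrome tautomerase (chr13:94436811-94479682, minus strand, 8 exons), had 17417, 19458 and 19884 normalized counts in EV and 7295, 9519 and 10036 in HDAC8. Again the groups did not overlap, with HDAC8 1 the lowest library. DCT fell from a mean of 18920 ± 1318 to 8950 ± 1457 (SD, n = 3; log2 fold change -1.08, SE 0.15, DESeq2 adjusted p = 4.04e-11). TYRP1, which oxidizes a later intermediate in the mouse and steadies tyrosinase (chr9:12685439-12710285, plus strand, 8 exons), was almost not expressed in this line. Its normalized counts were 62.9, 32.7 and 21.7 in EV and 0, 0 and 17.4 in HDAC8, from 60, 35, 22, 0, 0 and 16 reads. The groups did not overlap, yet EV 3 and HDAC8 3 were near each other, and the gene was not called (log2 fold change -2.76, 95% interval from -5.92 to 0.39, DESeq2 adjusted p = 0.303). The HDAC8 mean of TYRP1 was 14.9% of the EV mean. DESeq2 called the gene when HDAC8 3, the only HDAC8 library with reads, was left out (adjusted p = 0.0032), which removes the library nearest to EV.

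The balance of the enzymes was then read within each library. The log2 ratio of TYR to DCT was -0.09, -0.15 and -0.17 in EV and -0.58, -0.67 and -0.69 in HDAC8. The ratio was lower in HDAC8 by 0.51 without overlap, and the exact two-sided permutation test gave p = 0.1, the smallest value that 3 against 3 libraries allow (0.2 adjusted over 4 ratios). All 3 HDAC8 ratios were near each other, as were all 3 EV ratios. The ratios of TYR to TYRP1 (log2 difference 2.18) and of TYRP1 to DCT (-2.70) overlapped between the groups (exact permutation p = 0.3 each), and both rest on the few reads of TYRP1.

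Next, the structural proteins of the melanosome were examined. MLANA (Melan-A, a melanosomal membrane protein and melanoma antigen that binds PMEL, chr9:5890889-5910606, plus strand, 5 exons) had 8618, 8323 and 9052 normalized counts in EV and 237, 300.1 and 372 in HDAC8. The lowest EV library lay far above the highest HDAC8 library, and the EV libraries agreed to within a coefficient of variation of 4.23%. The mean fell from 8665 ± 367 to 303 ± 67.8 (SD, n = 3), with a log2 fold change of -4.84 and a 95% interval from -5.19 to -4.49 (DESeq2 adjusted p = 2.36e-161). PMEL, the protein of the melanin fibrils (chr12:55954105-55973317, minus strand, 11 exons), had 169800.1, 247772 and 182523 normalized counts in EV and 147944, 89540.4 and 94276 in HDAC8. HDAC8 1 was close to EV 1, while the other 2 HDAC8 libraries were well below, and EV 2 was the highest of all. PMEL fell from a mean of 200032 ± 41831 to 110587 ± 32439 (SD, n = 3; log2 fold change -0.86, SE 0.19, DESeq2 adjusted p = 1.74e-04), and the interval reached from -1.23 to -0.48. Without HDAC8 1 the log2 fold change of PMEL was -1.12 (DESeq2 adjusted p = 4.37e-16) and without EV 2 it was -0.67 (adjusted p = 0.01). The log2 ratio of MLANA to PMEL was -4.30, -4.90 and -4.33 in EV and -9.28, -8.22 and -7.98 in HDAC8. It was lower by 3.98 on the log2 scale with no overlap (exact two-sided permutation p = 0.1, the smallest possible, 0.2 adjusted over 4 ratios). Both proteins work in the same early melanosome, and the share of MLANA in their joint transcripts was smaller in each HDAC8 library than in any EV library.

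**Figure D2:**
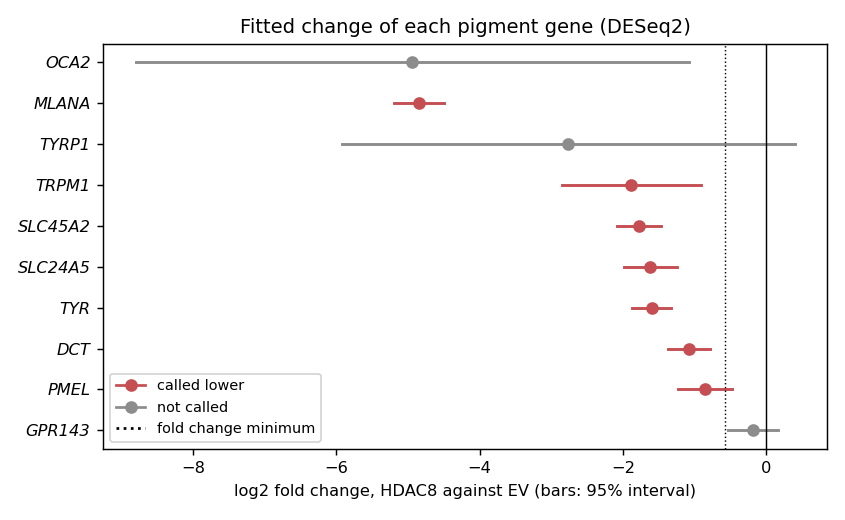
DESeq2 log2 fold change of each pigment gene, HDAC8 against EV, with its 95% interval as a bar, red where the gene was called lower and gray where it was not called. MLANA stands at -4.84 with a narrow interval, the bars of OCA2 (-8.79 to -1.08) and TYRP1 (-5.92 to 0.39) are wide, and the bar of GPR143 (-0.54 to 0.16) crosses 0.

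The transporters of the melanosome membrane came next. SLC45A2, a transporter that helps to keep the melanosome from turning acidic (chr5:33944623-33984693, minus strand, 7 exons), had 7697, 9044 and 7402 normalized counts in EV and 2085, 2265 and 2683 in HDAC8. All 3 HDAC8 libraries were far below EV. SLC45A2 fell from a mean of 8048 ± 875 to 2344 ± 307 (SD, n = 3; log2 fold change -1.78, SE 0.16, DESeq2 adjusted p = 3.66e-27). SLC24A5, a sodium and calcium exchanger that needs potassium (chr15:48120990-48142672, plus strand, 9 exons), had 10266, 10284 and 11776 in EV and 2580, 4556 and 3413 in HDAC8. The HDAC8 libraries did not overlap EV and differed from each other more than those of SLC45A2 did, with coefficients of variation of 28.2% and 13.1%. The mean fell from 10776 ± 867 to 3516 ± 992 (SD, n = 3; log2 fold change -1.62, SE 0.19, DESeq2 adjusted p = 1.22e-15). SLC24A5 was the only pigment gene with expected counts that were not whole, in 5 of the 6 libraries, as arises when RSEM shares reads between genes, and it overlaps MYEF2 on the opposite strand. OCA2, which carries chloride out of the melanosome (chr15:27754875-28099315, minus strand, 24 exons), had 167, 183 and 204 normalized counts in EV. In HDAC8 it had 18.0, 0 and 0, from 21 reads in HDAC8 1 and no reads in the others. Each HDAC8 library was far below EV, but DESeq2 did not call the gene (log2 fold change -4.94, SE 1.97, adjusted p = 0.0787). Its call depended on the method: edgeR gave -4.86 with adjusted p = 5.61e-04 and limma-voom -6.73 with adjusted p = 0.00184, and DESeq2 called it when any HDAC8 library was left out, while its adjusted p ran up to 0.382 when an EV library was. The HDAC8 mean of OCA2, which rests on HDAC8 1 alone, was 3.24% of the EV mean.

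The receptor and the channel were the last of the pigment genes. GPR143, a G protein-coupled receptor of the melanosome membrane (chrX:9725346-9786297, minus strand, 9 exons), had 2482, 3139 and 2569 normalized counts in EV and 2694, 2082 and 2422 in HDAC8. HDAC8 1 was above EV 1 and EV 3, so the groups overlapped. The means were 2730.1 ± 357 and 2399 ± 307 (SD, n = 3), with a log2 fold change of -0.19, an interval from -0.54 to 0.16 and DESeq2 adjusted p = 0.623. The lower end of this interval was smaller in size than the log2 fold changes of DCT and TYR. The interval overlapped that of PMEL (-1.23 to -0.48), which was called lower. Differences between the genes were not tested. TRPM1, a cation channel whose gene also holds the microRNA gene MIR211 (chr15:31001065-31161160, minus strand, 28 exons), had 198, 355 and 329 normalized counts in EV and 111, 84.0 and 43.6 in HDAC8. The groups did not overlap, although each spread widely. The mean fell from 294 ± 84.0 to 79.6 ± 34.0 (SD, n = 3; log2 fold change -1.88, SE 0.49, DESeq2 adjusted p = 0.00219), a call that was lost without EV 2 (-1.73, adjusted p = 0.0569). MIR211 and TYRL, a partial copy of TYR, were listed at 0 in all 6 libraries. Nothing states that these libraries capture mature microRNAs, so the 0 of MIR211 is not read as absence.

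**Figure D3:**
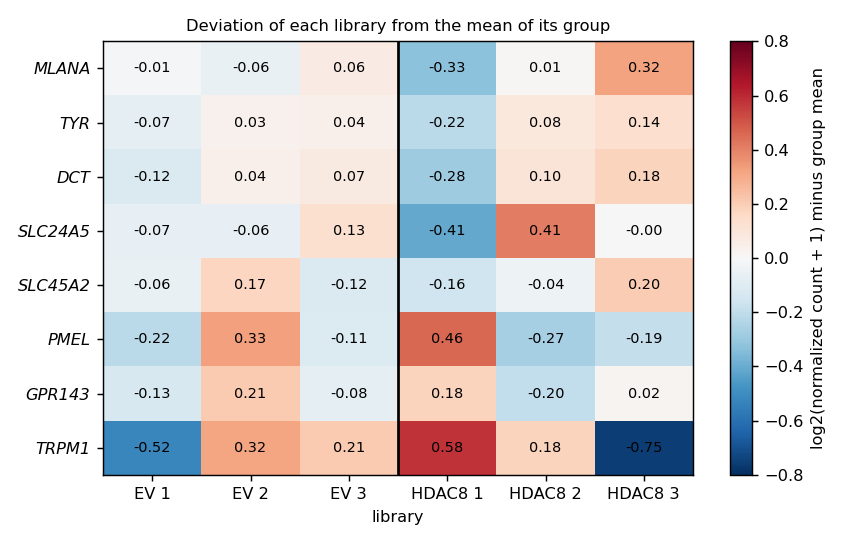
Heat map of the 8 pigment genes with reads in every library, by library, giving the difference of log2(normalized count + 1) from the mean of the library's own group. HDAC8 1 is below its group mean for MLANA, TYR, DCT, SLC24A5 and SLC45A2 (-0.41 to -0.16) and above it for PMEL (0.46), GPR143 (0.18) and TRPM1 (0.58).

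Within the HDAC8 group the pigment genes did not vary as one block. HDAC8 1 was the lowest of its group for 5 genes (MLANA, TYR, DCT, SLC24A5 and SLC45A2) and the highest for 4 (PMEL, GPR143, TRPM1 and OCA2). Its deviations from the group mean were -0.33 for MLANA and -0.28 for DCT, against 0.46 for PMEL and 0.58 for TRPM1, on the log2 scale. In EV, the second library was the highest for PMEL (0.33), TRPM1 (0.32), GPR143 (0.21) and SLC45A2 (0.17), and EV 1 was the lowest for 7 of the 10 genes. Of the reads of all 10 genes, PMEL alone took 72.6% to 78.4% in EV and 78.3% to 88.2% in HDAC8. The summed share of the 10 genes in all counts was 0.636%, 0.805% and 0.636% in EV and 0.469%, 0.297% and 0.316% in HDAC8. Without PMEL, the share of the other 9 genes was 0.174% ± 0.0010 in EV and 0.0622% ± 0.0059 in HDAC8 (SD, n = 3), with very little spread in EV.

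Levels were compared between genes per length, as reads per kilobase of the canonical transcript, scaled to the total count of the library (RPKM). PMEL was the most abundant pigment transcript in both groups, at 2440 ± 458 RPKM in EV and 1404 ± 470 in HDAC8 (SD, n = 3). In EV, TYR (217 ± 0.51), SLC24A5 (149 ± 9.58) and SLC45A2 (121 ± 12.5) followed, then DCT (96.8 ± 2.84) and MLANA (96.8 ± 5.16), which did not differ beyond their spread, and GPR143 (43.1 ± 4.84). OCA2 (1.52 ± 0.10), TRPM1 (1.31 ± 0.33) and TYRP1 (0.357 ± 0.21) came last, and the mean of OCA2 lay within 1 SD of that of TRPM1. In HDAC8 the order was different: TYR (73.7 ± 7.03) remained next to PMEL, and SLC24A5 (49.8 ± 12.4), DCT (47.1 ± 6.23), GPR143 (39.2 ± 6.44) and SLC45A2 (36.3 ± 4.13) followed with neighbours that did not differ beyond their spread. MLANA, level with DCT in EV, had 3.47 ± 0.70 RPKM in HDAC8. TRPM1 (0.371 ± 0.17) followed, and OCA2 (0.0532) and TYRP1 (0.0530) rested on the reads of 1 library each.

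The wider pigment cell programme was then read from 6 lists of genes, by counts of calls in the same DESeq2 fit. Transcription regulators of the lineage were mostly not called: of 17 with an adjusted p, 1 was higher and 1 lower, and the median was -0.11 on the log2 scale. Over all genes 5.44% were called lower and 5.57% higher, so the counts of this list are near those of all genes, and each list below is to be read against these shares. MITF, the regulator of most pigment genes, had normalized counts of 17824, 16257 and 17935 in EV and 11314, 17920 and 16096 in HDAC8 (log2 fold change -0.20, DESeq2 adjusted p = 0.544). Only HDAC8 1 was clearly below EV. SOX10, which acts with MITF, had 13659, 18068 and 13633 in EV and 9685, 13104 and 13394 in HDAC8, without overlap and without a call (-0.33, adjusted p = 0.211). SOX9, a related factor, rose from 4084 ± 268 to 10890 ± 2402 (SD, n = 3; log2 fold change 1.41, DESeq2 adjusted p = 1.71e-14). The gene called lower was FOXD3, a neural crest factor, with a mean of 75.2 ± 45.8 in EV and no read in HDAC8, at least 25.4-fold lower against 3 counts per library. FOXD3 lay under the level set for named genes and was named after its values were seen, as were KIT, MC1R, EDNRB, BLOC1S6, LYST, RAB27A, FMN1 and SPIRE1 below.

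Signalling through the melanocortin receptor, KIT and endothelin feeds MITF and tyrosinase. Of 20 genes with an adjusted p, 3 were called higher and 2 lower (median -0.35). KIT itself had almost no reads (0, 2.80 and 0 normalized counts in EV, 0 in each HDAC8 library). The melanocortin receptor MC1R (2180 ± 466 to 1388 ± 515, SD, n = 3) was not called (log2 fold change -0.65, DESeq2 adjusted p = 0.0742). ADCY2, an adenylyl cyclase, fell from 2036 ± 142 to 611 ± 91.3 (SD, n = 3, log2 fold change -1.74, DESeq2 adjusted p = 2.30e-15), while ADCY7, another one, rose from 468 ± 14.5 to 1127 ± 232 (1.27, adjusted p = 7.03e-06). PRKCB, a protein kinase C that activates tyrosinase, rose from 93.9 ± 21.0 to 382 ± 11.2 (2.03, adjusted p = 5.28e-06). The endothelin receptor EDNRB rose (0.85, adjusted p = 7.11e-06) and the cAMP phosphodiesterase PDE4D fell (-0.64, adjusted p = 0.0253). The adenylyl cyclases among the called genes thus moved in both directions.

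Genes that carry melanosomes to the cell edge and genes that build them were counted next. For transport, 5 of 11 genes were called lower and 0 higher by DESeq2 (0 also at an unadjusted p under 0.05, by edgeR and by limma-voom), with a median of -0.62. MYO5A, the myosin motor of the melanosome, fell from 18065 ± 837 to 6359 ± 374 (SD, n = 3, log2 fold change -1.51, DESeq2 adjusted p = 3.92e-31). RAB27B (-2.27, adjusted p = 0.0198) and RAB27A (-1.25, adjusted p = 8.84e-07), GTPases of which RAB27A ties the melanosome to this motor, and the actin nucleators FMN1 (-0.96) and SPIRE1 (-0.62) fell as well. For biogenesis and cargo sorting, 4 of 33 genes were called lower and 0 higher (2 at an unadjusted p under 0.05, 0 by edgeR and limma-voom), with a median of -0.04. Both GTPases that deliver tyrosinase and its relatives fell, RAB38 from 2047 ± 170.4 to 994 ± 77.6 (-1.04, adjusted p = 7.98e-07) and RAB32 from 661 ± 32.1 to 322 ± 69.4 (-1.04, adjusted p = 0.00427), with BLOC1S6 (-0.77) and LYST (-0.61). Whether the lists differ from each other was not tested.

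Among 11 genes for ions, copper and cystine, 2 were called higher and 2 lower (median 0.06). SLC7A11, the cystine importer needed for red-yellow pigment, fell from 30133 ± 1480.2 to 10950 ± 2819 (SD, n = 3, log2 fold change -1.46, DESeq2 adjusted p = 5.90e-15), and MFSD12, which brings cystine into melanosomes, fell by 0.72 on the log2 scale (adjusted p = 1.30e-04). ATP7A, which supplies copper to tyrosinase, rose by 0.74 (adjusted p = 7.28e-04) and SLC24A4, a relative of SLC24A5, by 1.12 (adjusted p = 3.31e-04). Genes linked to MITF outside pigmentation were lower in 13 of 26, with 0 called higher (1 at an unadjusted p under 0.05, 0 by edgeR and limma-voom) and a median of -0.66. By the rule for named genes these include PLA1A, a phospholipase (from 779 ± 69.5 to 123 ± 49.0, -2.67, adjusted p = 4.54e-12), and HPGD, which breaks down prostaglandins (-1.68, adjusted p = 9.24e-05). CDK2 is among the genes called lower too, and it overlaps PMEL on the opposite strand. Its normalized counts were 18355, 18612 and 18545 in EV and 9208, 11824 and 11647 in HDAC8. It was thus lowest in HDAC8 1, where PMEL was the highest of its group. Whether CDK2 holds reads of PMEL was not tested. The lists are not separate, as IRF4 and MCOLN3 of this list also stand in another.

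**Figure D4:**
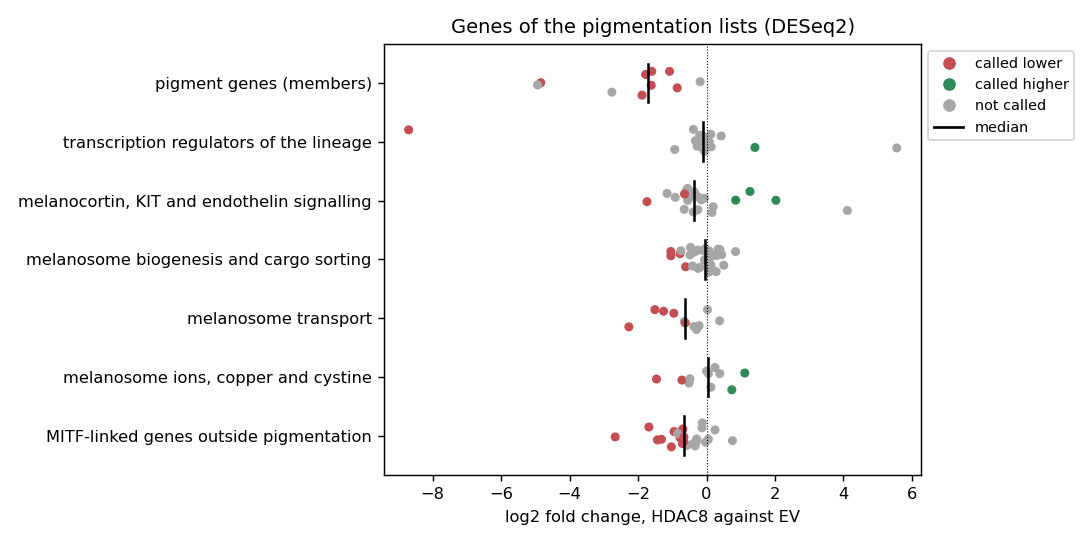
DESeq2 log2 fold change (horizontal axis) of each fitted gene of the pigment genes and of the 6 lists, 1 point per gene, red where called lower, green where called higher and gray where not called, with a black bar at the median of each list. The median is -1.70 for the pigment genes, near 0 for regulators (-0.11), biogenesis (-0.04) and ions (0.06), and -0.62 and -0.66 for transport and MITF-linked genes.

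To see whether the genes beside a pigment gene moved with it, the overlapping genes and the nearest protein-coding gene on each side were read from GENCODE release 44 (GRCh38). There were 32 such neighbours, of which 8 had no read. Of the 23 with an adjusted p, 10 were called lower and 2 higher, against 5.44% and 5.57% of all genes, so the higher count is near that of all genes. MLANA, with the largest called fall, stood among neighbours that were not called: KIAA2026, which overlaps it (-0.53, DESeq2 adjusted p = 0.147), ERMP1 (-0.13) and RANBP6 (0.33). OCA2 was different. GABRG3, a GABA receptor subunit 212891 bases away, had 137, 208 and 182 normalized counts in EV and 10.3, 0 and 0 in HDAC8, the same libraries at 0 as for OCA2 (log2 fold change -5.62, DESeq2 adjusted p = 1.14e-07). HERC2, on the other side of OCA2, was not called (0.13, adjusted p = 0.763). Around PMEL, CDK2, which overlaps it on the opposite strand, fell from 18504 ± 134 to 10893 ± 1462 (-0.76, adjusted p = 1.04e-06), and RAB5B (-0.82) and DGKA (-1.49) were called lower too. MYEF2, which overlaps SLC24A5 on the opposite strand, fell from 2481 ± 452 to 562 ± 214 (-2.14, adjusted p = 3.42e-13), and SEMA6D, 346762 bases away, from 1433 ± 110.3 to 349 ± 79.8 (-2.04, adjusted p = 1.86e-14). GPC6 beside DCT (-1.24) and NOX4 beside TYR (-3.64) were called lower as well. The remaining falls were in LURAP1L-AS1, which overlaps TYRP1 with few reads (21.6 ± 11.7 to 0.363 ± 0.63), and in the pseudogene AC139783.2, which overlaps SLC45A2 (-2.22). Neighbours also moved the opposite way: AMACR, 1472 bases from SLC45A2, rose from 635 ± 12.6 to 1568 ± 263 (1.30, adjusted p = 7.21e-08), and KLF13 beside TRPM1 from 256 ± 48.5 to 886 ± 102 (1.79, adjusted p = 6.76e-09). Since strand-specific counting is not stated, how reads in stretches shared by genes on opposite strands were assigned is not known. Among the pigment genes only SLC24A5 had expected counts that were not whole. Sharing of reads between overlapping genes was not tested.

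**Figure D5:**
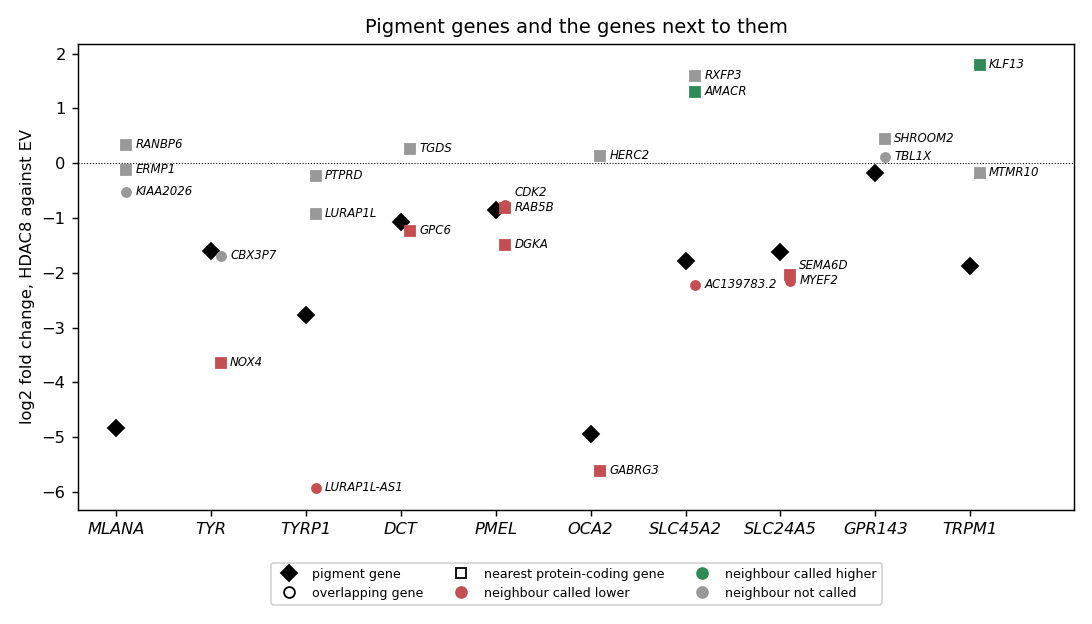
DESeq2 log2 fold change of each pigment gene (black diamonds) and of its fitted neighbours (circles for overlapping genes, squares for the nearest protein-coding genes), red where a neighbour was called lower, green where called higher and gray where not called. Neighbours of MLANA lie between -0.53 and 0.33 while MLANA is at -4.84, GABRG3 (-5.62) lies near OCA2 (-4.94), and AMACR and KLF13 lie above 0.

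Last, the genes whose 6 values were most like those of each pigment gene were sought among 14451 genes with a mean of at least 50 normalized counts, by the root mean square distance between values of log2(normalized count + 1) centred on their mean. The libraries are the same for both genes and 6 points describe a pattern loosely, so this is a description. Values were centred but not scaled, so distances depend on the size of a change and are not compared between pigment genes. For MLANA the nearest were PRKG2 (distance 0.317), QPRT (0.337) and SV2A (0.458), with log2 fold changes of -4.36, -4.54 and -4.67. TYR was matched by NRG3 (0.0692), ADCY2 (0.0783) and ANKRD33B (0.0951), so that ADCY2 appears in both this search and the signalling list. DCT lay closest to PLXNC1 (0.0532), FSTL1 (0.0591) and SEPT6 (0.0597), and PMEL to CACNB3 (0.0873), LAMA5 (0.0962) and TBC1D2 (0.0969). SLC45A2 was nearest to SCML4 (0.0932), GDF15 (0.1) and TRIM62 (0.104), and SLC24A5 to the transporters SLC16A6 (0.0831) and SLC7A11 (0.123) and to MMD (0.124). For OCA2 the nearest gene of all was its neighbour GABRG3 (0.298), ahead of SULT1A1 (0.487) and SOGA3 (0.502). GPR143 was nearest to ILK (0.0264), ADCY1 (0.0313) and NUP93 (0.0392), and TRPM1 to PALM (0.129), IFI35 (0.265) and C2 (0.314). TYRP1 lay under the level for this search, and no pigment gene was among the 3 nearest genes of another.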

How the data were processed

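RNA was sequenced from 3 EV and 3 HDAC8 libraries of WM164 cells, grouped by GEO's labels. Nothing states that replicates came from separate cultures, so p-values measure the spread between these libraries, which may be technical. Trimmomatic (read trimming), STAR (alignment to the transcriptome) and RSEM (counting) were used by the authors, who deposited expected counts per gene without scaling. Genome build, annotation, strand setting and removal of duplicates are not given in the sources used here.

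Expected counts were rounded. The groups were compared in DESeq2 1.42.0 (R 4.3.3; Wald test, two-sided, DESeq2's size factors, no covariates). Genes entered with 10 or more counts in total (26162), and 21021 received a Benjamini-Hochberg adjusted p. The thresholds, 0.05 for the adjusted p and 0.58 for the size of the log2 fold change, follow the methods of the study. Normalized counts are counts divided by size factors, RPKM is from total counts, intervals are at 95% from the DESeq2 standard error, and the floor of a library is 3 counts, for counting error only. Alternatives used edgeR 4.0.16 (quasi-likelihood) and limma-voom (limma 3.58.1). Fits were also run on counts simulated from DESeq2's own fitted means and spread. This cannot check that model, and no result here rests on it. Pairs of libraries in a group differed by more than sampling noise. Positions and transcript lengths were matched by Ensembl identifier to GENCODE release 44 (GRCh38), and promoters by symbol to RefSeq.

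The pigment genes and lists were chosen with earlier results of these data known. Named genes are the pigment genes, HDAC8, MITF, SOX10, TYRL, MIR211, neighbours, the 2 largest rises and falls per list among called genes (mean of at least 50 normalized counts, groups that do not overlap), and the 3 nearest patterns per pigment gene with a mean of at least 50. Of the marker genes, 1 is not reported here.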

Additional observations from a re-analysis of the deposited data

How the results depend on the processing

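No log2 fold change of a pigment gene reversed under any alternative. The count of 7 called lower was 8 with edgeR or limma-voom, 9 with a replicate block, 5 when DESeq2 tested for changes beyond 0.58, and 6 to 9 when a library was left out. Another scaling moved the median of all genes by at most 0.04 on the log2 scale. OCA2 was called with edgeR, limma-voom, the replicate block (-8.28, DESeq2 adjusted p = 0.00433) and without any 1 of the HDAC8 libraries, TYRP1 with the replicate block (-5.95, adjusted p = 0.0183) and without HDAC8 3, and TRPM1 lost its call without EV 2. Replicate numbers do not pair the libraries: same-numbered libraries had correlations of deviations of -0.03, -0.07 and 0.04. No library correlated best with its own number, and the largest correlation was 0.15, between EV 2 and HDAC8 1. The replicate block left 1075 genes called higher and 1078 lower, against 1170 and 1143.

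List counts that moved by over 1.5 times were as follows. When changes beyond 0.58 were tested for, melanocortin, KIT and endothelin genes had 1 higher and 1 lower, biogenesis 0 lower, transport 2 lower, ions, copper and cystine 0 higher and 1 lower, and MITF-linked genes 3 lower. At an adjusted p under 0.01 the melanocortin list had 1 lower. With at least 10 counts in every library, regulators had 0 lower (FOXD3 was not fitted), and biogenesis and MITF-linked genes had 1 higher each. When a library was left out, counts ran from 1 to 2 for regulators higher, 1 to 4 for melanocortin lower, 2 to 5 for biogenesis lower, 0 to 1 for biogenesis higher, 3 to 5 for transport lower, and 1 to 4 for ions, copper and cystine lower. The cause was not tested. Ratios kept their direction, but a pseudocount of 10 in place of 1 took that of TYR to TYRP1 from 2.18 to 0.12 and that of TYRP1 to DCT from -2.70 to -0.63. The ratio with a pseudocount of 0 was not run where TYRP1 had no reads. Depth limits OCA2 and TYRP1, with 0 to 21 reads per HDAC8 library.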
